A study of Mus musculus with 8 samples.

Results

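The intestinal epithelium makes oxidants, iron-withholding and acute phase proteins and a carrier for IgA, which together act on the bacteria of the gut lumen. The 10 genes described here belong to that set and were chosen by name: Duox2, Duoxa2, Nox1 and Nos2 (oxidant production), Lcn2, Saa1 and Saa2 (lipocalin and serum amyloid A), Pigr (IgA transport), Lypd8 (a surface protein that holds bacteria off) and Nlrp6 (an intracellular sensor). All 10 have a row among the 54139 genes of the deposited tables. Of these 10 genes, 8 passed the filter on low counts that left 14701 genes to test, and Saa1 and Saa2 did not.

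RNA came from intestinal epithelial cells of mice in 8 libraries. The 4 WT libraries are from mice that carry Villin-Cre alone, and the 4 cKO libraries from mice with a floxed Rictor allele and Villin-Cre. The Villin promoter drives Cre recombinase in the intestinal epithelium, and all groups carry Cre. Rictor defines mTOR complex 2, and the comparison asks which transcripts differ when it is deleted there. For the age and sex of the mice, the intestinal segment and the way cells were isolated, the sources used here give nothing. Nor do they state that every library is from another mouse, so a p-value measures the spread among libraries, which may be technical.

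As background, DUOX2 is a dual oxidase of the apical membrane that releases hydrogen peroxide, and it leaves the endoplasmic reticulum only with its maturation factor DUOXA2. NOX1 makes superoxide together with the organiser NOXO1, the activator NOXA1 and the subunit p22phox, encoded by Cyba. Inducible nitric oxide synthase, encoded by Nos2, makes nitric oxide. These enzymes, the siderophore-binding lipocalin 2 and the serum amyloids are known to be induced in epithelium by bacteria and by cytokines such as IL-22 and IL-17. The polymeric immunoglobulin receptor, encoded by Pigr, carries IgA across the cell.

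Totals ran from 15110451 to 18708335 counts per library, so a gene with no reads in a library could lie at up to 3 counts, which is 0.159 to 0.193 CPM (counts scaled to library size, here with TMM, a normalization for library composition). Rictor averaged 48.2 ± 7.51 CPM in the WT and 32.8 ± 9.24 CPM in the cKO libraries (SD, 4 each), with every cKO value below every WT value. On the log2 scale the difference was -0.55 ± 0.20 (SE), which edgeR did not call (adjusted p = 0.921). Epithelial markers summed to between 9662 and 12924 CPM and markers of small intestinal enterocytes to between 11122 and 27528 CPM. The colon markers Car1 and Hoxb13 had no read in any library, while the other 9 genes of the colon list summed to between 1689 and 3469 CPM. Of that sum Muc13 alone gave 1236 to 2791 CPM. Markers of neutrophils, which also make lipocalin 2, had 23 reads in all over 10 genes, with S100a8, S100a9, Ly6g, Mpo and Elane at 0. In earlier results of these data WT library 3 and cKO library 3 stood apart, so values are also given without both.

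Duox2 and Duoxa2 lie head to head on chromosome 2, and their RefSeq start sites are 673 bases apart on opposite strands (build GRCm38.p6). RefSeq promoter windows were matched by symbol for 9 of the 10 genes, Nos2 having no entry. For Lcn2 and Nox1 the RefSeq start and the bases before it lie inside the annotated span of the gene. The 250 bases before the start are shown for Duox2, Duoxa2 and Lcn2, whose levels varied together, and for Nox1, whose level departed from theirs in cKO library 1. Each runs 5′ to 3′ on the strand of its gene, and capitals mark the motif matches described next.
Duox2, chr2:122298228-122298477, minus strand: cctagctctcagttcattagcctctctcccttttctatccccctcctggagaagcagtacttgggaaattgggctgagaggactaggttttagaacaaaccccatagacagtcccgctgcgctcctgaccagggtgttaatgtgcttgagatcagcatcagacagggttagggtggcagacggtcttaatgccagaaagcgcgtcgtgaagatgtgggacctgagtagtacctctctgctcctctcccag
Duoxa2, chr2:122298650-122298899, plus strand: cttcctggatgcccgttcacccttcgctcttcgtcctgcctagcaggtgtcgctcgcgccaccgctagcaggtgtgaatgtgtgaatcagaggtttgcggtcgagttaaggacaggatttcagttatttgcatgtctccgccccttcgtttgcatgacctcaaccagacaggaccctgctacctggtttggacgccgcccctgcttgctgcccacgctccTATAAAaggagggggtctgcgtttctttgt
Lcn2, chr2:32387740-32387989, minus strand: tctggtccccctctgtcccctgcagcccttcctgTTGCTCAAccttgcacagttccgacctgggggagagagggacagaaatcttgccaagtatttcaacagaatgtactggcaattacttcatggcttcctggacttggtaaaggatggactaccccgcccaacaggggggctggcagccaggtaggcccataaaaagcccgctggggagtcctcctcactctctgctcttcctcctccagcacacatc
Nox1, chrX:134111855-134112104, minus strand: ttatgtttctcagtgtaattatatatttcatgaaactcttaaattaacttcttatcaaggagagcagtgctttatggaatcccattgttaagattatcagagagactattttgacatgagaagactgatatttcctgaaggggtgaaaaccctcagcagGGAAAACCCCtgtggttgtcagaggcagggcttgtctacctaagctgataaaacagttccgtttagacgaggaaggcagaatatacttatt

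A set of 5 motifs was searched on both strands of the whole windows, from 250 bases before the start to 50 from the start on. They were a kappaB motif (GGG, any 3 bases, then TTCC, in 5.56% of all 32851 windows), a STAT motif (TTCNNNGAA, 8.30%), a C/EBP motif (TTNNGCAA, 10.8%), an HNF4 motif (CAAAGTCCA, 0.475%) and a TATA box (TATAAA, 13.6%). The Duoxa2 window holds the TATA box at position -30 from its start, and the Duox2 window holds none of these letters. The Nox1 window has a kappaB match that begins at position -91. The Lcn2 window has a C/EBP match that begins at position -216, and the Saa1 and Saa2 windows, 96.0% identical to each other, have it at positions -182 and -183. The Pigr window has a STAT match after its start. A match is a description of the sequence and not a bound site.

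Levels of the 10 genes, compared per length as FPKM (counts divided by gene length and library size), spanned several orders of magnitude. Pigr had a mean of 1642.5 FPKM over the 8 libraries and ranked 21 among 27741 genes with reads. Lypd8 had 1505 FPKM and rank 23, and its libraries, from 803 to 2094 FPKM, overlapped those of Pigr, from 1240 to 2210 FPKM. Together these 2 genes gave 96.5% of the summed FPKM of the 10 genes. Nlrp6 followed at 94.4 FPKM (rank 547), below every library of Lypd8 and above every library of Duox2.

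Duox2 had a mean of 9.03 FPKM, Nos2 3.75 FPKM, Duoxa2 3.59 FPKM and Nox1 1.80 FPKM, and the ranges of neighbours in this order overlapped. Lcn2 was at 0.361 FPKM, Saa1 at 0.0905 FPKM and Saa2 at 0.00260 FPKM. Nos2 and Duoxa2 thus lay close together in level, while Duox2 exceeded Duoxa2 in every library, from 2.13-fold to 5.78-fold per length. The highest of these ratios was in cKO library 2, where Duoxa2 had only 4 reads.

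**Figure D1:**
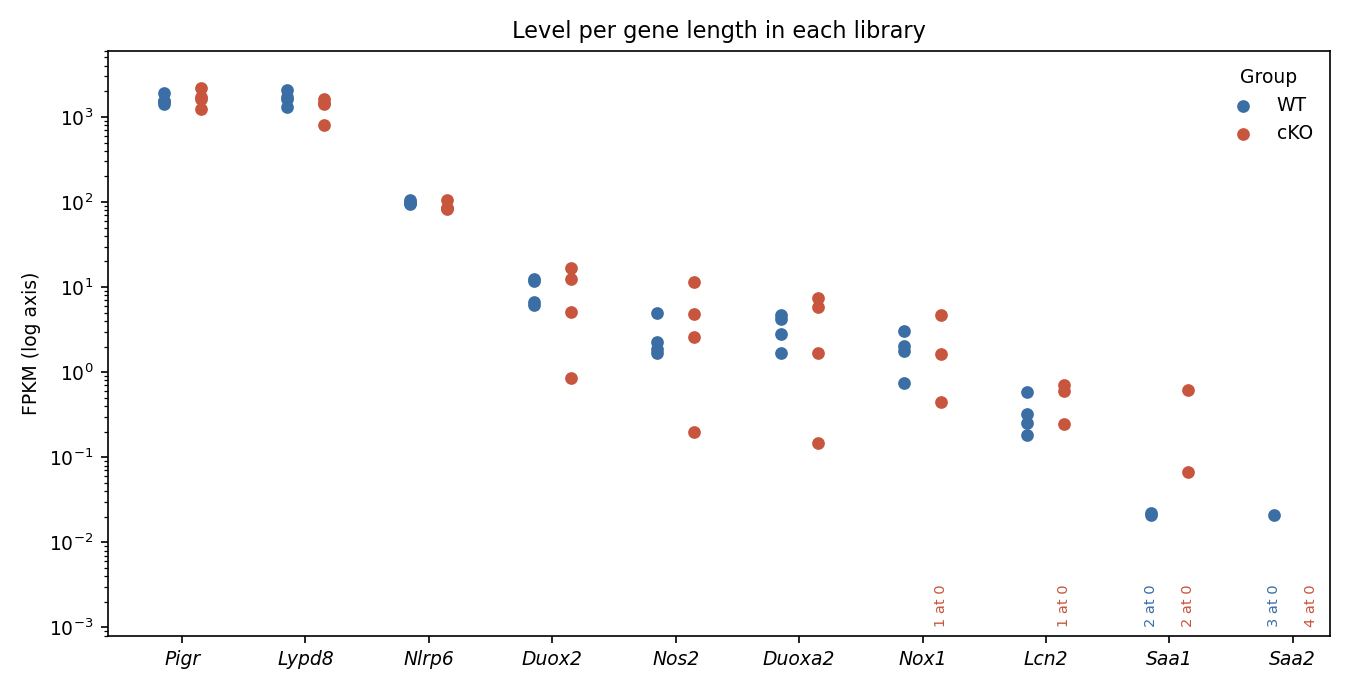
FPKM (log axis) of the 10 genes in each of the 4 WT and 4 cKO libraries, ordered by mean level; libraries listed at 0 are counted at the foot. Pigr and Lypd8 lie between 803 and 2210 FPKM, Nlrp6 between 83.1 and 105.5, and the oxidases and Nos2 spread widely, mainly through cKO libraries.

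None of the 8 tested genes differed between WT and cKO beyond the spread of the libraries. In edgeR's quasi-likelihood test 0 of 8 passed an adjusted p of 0.05, and 0 had an unadjusted p under 0.05, where 0.0136% (0.00680% higher and 0.00680% lower in cKO) and 3.90% (1.83% higher and 2.07% lower) of all tested genes did. DESeq2 and limma voom also called 0 of them after adjustment. Before adjustment, Nlrp6, Lypd8 and Duox2 were under 0.05 by limma voom with quality weights, all lower in cKO, with adjusted p of 0.457, 0.584 and 0.588. The share of all tested genes under 0.05 in that fit is not given here, so nothing is drawn from how many of the 8 were. The log2 fold changes had a median of 0.0037, beside 0.0022 over all tested genes, with 4 genes higher and 4 lower in cKO. For all 8 the WT and cKO libraries overlapped (3.21% of tested genes did not, 1.41% with cKO above and 1.80% with cKO below). With intervals this wide for the oxidant genes, a 2-fold difference either way lies inside the 95% intervals of Duox2, Duoxa2, Nox1, Nos2 and Lcn2. In bulk RNA, fewer cells that express a gene and less RNA per cell cannot be told apart.

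**Figure D2:**
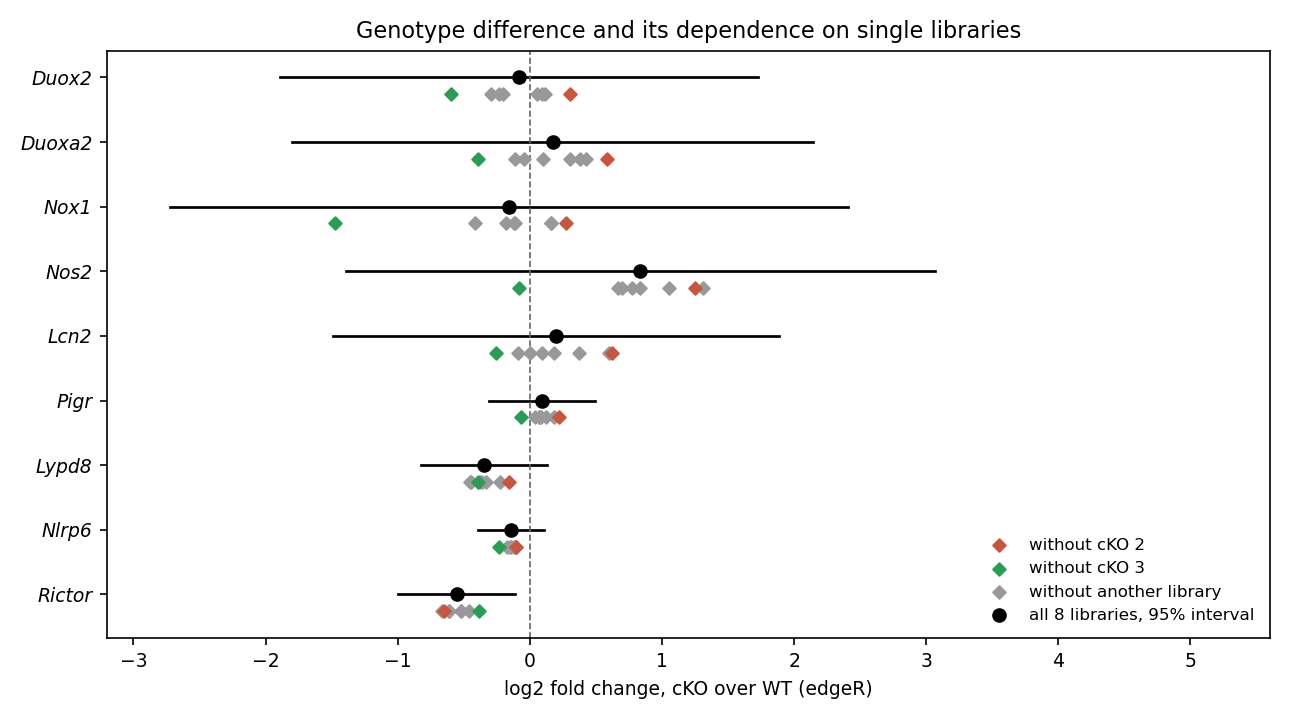
Log2 fold change of cKO over WT from edgeR (black, with its 95% interval) for the 8 tested genes and Rictor; diamonds are the values with 1 library left out. For Duox2 the value is -0.60 without cKO library 3 (green) and 0.31 without cKO library 2 (red).

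Duox2 (ENSMUSG00000068452, chromosome 2, 122279247 to 122298165, minus strand) was at 43.6, 80.3, 76.6 and 39.9 CPM in WT libraries 1 to 4 and at 80.5, 5.49, 108 and 33.1 CPM in cKO libraries 1 to 4. The range was wider in cKO, which held both the lowest and the highest of the 8. Group means were 60.1 ± 21.3 and 56.7 ± 46.0 CPM (SD, n = 4 each). On the log2 scale cKO over WT was -0.082 ± 0.77 (SE; 95% interval -1.89 to 1.73; edgeR adjusted p = 0.987). Its sign turned without WT library 2 (0.090), WT library 3 (0.057), cKO library 2 (0.31) or cKO library 4 (0.11).

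Duoxa2 (ENSMUSG00000027225, chromosome 2, 122298900 to 122302885, plus strand), the partner that DUOX2 needs to reach the membrane, was at 2.70, 6.85, 7.60 and 4.59 CPM in WT and at 9.42, 0.236, 12.1 and 2.70 CPM in cKO. The order of the libraries was nearly that of Duox2, with cKO library 3 highest and cKO library 2 lowest. The log2 fold change was 0.17 ± 0.85 (SE; 95% interval -1.80 to 2.14; edgeR adjusted p = 0.9752). It turned negative when WT library 1 (-0.043), cKO library 1 (-0.11) or cKO library 3 (-0.40) was left out. The last 695 bases of Duoxa2 overlap Duoxa1 on the opposite strand, and whether counting used strand is not given in the sources used here. Duoxa1 was at 0.236 to 1.22 CPM, and in cKO library 2 it had as many reads (4) as Duoxa2. Whether reads of the overlapping bases were given to the right gene cannot be told.

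Nox1 (ENSMUSG00000031257, chromosome X, 134086421 to 134221956, minus strand) was at 2.49, 5.97, 10.1 and 6.85 CPM in WT and at 1.48, 0, 15.8 and 5.39 CPM in cKO. Library 2 of cKO had no Nox1 read, which allows a level of up to 0.177 CPM. Library 1 of cKO was also low for Nox1, although it was among the highest for Duox2 and Duoxa2. Between groups Nox1 had a log2 fold change of -0.16 ± 1.10 (SE; 95% interval -2.72 to 2.41; edgeR adjusted p = 0.982). It turned positive when WT library 3 (0.16), cKO library 1 (0.16) or cKO library 2 (0.27) was left out, and was -1.48 without cKO library 3. The annotated span of Nox1 also covers Xkrx on the same strand and Arl13a on the other.

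Nos2 (ENSMUSG00000020826, chromosome 11, 78920787 to 78960254, plus strand) was at 10.1, 8.29, 22.2 and 7.52 CPM in WT and at 21.6, 0.886, 51.6 and 11.6 CPM in cKO. Again the highest and the lowest of the 8 libraries were both cKO. The log2 fold change was 0.84 ± 0.95 (SE; 95% interval -1.39 to 3.07; edgeR adjusted p = 0.922). Without cKO library 3 it was -0.079, and without both WT library 3 and cKO library 3 it was 0.40. The sign thus depended on cKO library 3 only while WT library 3 was kept.

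Lcn2 (ENSMUSG00000026822, chromosome 2, 32384633 to 32388252, minus strand) encodes lipocalin 2, which binds the siderophores that bacteria use to take up iron. It was rare, with 8 to 28 reads per WT library and 0 to 33 per cKO library. The levels were 0.848, 1.55, 0.680 and 0.489 CPM in WT and 1.60, 0, 1.85 and 0.642 CPM in cKO. Libraries that were high for Duox2 were high for Lcn2 as well, except WT library 3. For Lcn2 the log2 fold change came to 0.20 ± 0.76 (SE; 95% interval -1.49 to 1.89; edgeR adjusted p = 0.972). It turned negative without cKO library 1 (-0.093) or cKO library 3 (-0.26).

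The serum amyloids, acute phase proteins that carry lipids such as retinol, were near the limit of detection. Saa1 (ENSMUSG00000074115, chromosome 7, 46740497 to 46742980, minus strand) had 1, 1, 0 and 0 reads in WT and 26, 0, 3 and 0 reads in cKO. Nearly all of its reads were thus in cKO library 1. Saa2 (ENSMUSG00000057465, chromosome 7, 46751790 to 46754313, plus strand) had 1 read in WT library 1 and none elsewhere. An exact two-sided permutation test of CPM gave p = 0.429 for Saa1 (n = 4 each), where 4 against 4 cannot go below 0.0286. For Saa2, with its single read, every split of the libraries gives the same difference, so this test cannot decide. The spliced transcripts of the pair are 94.4% identical over 606 aligned bases, so the split of reads between them is uncertain. Their FPKM divide by lengths of 2478 and 2518 bases, longer than the spliced transcripts of 609 and 606 bases, which lowers them.

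Pigr (ENSMUSG00000026417, chromosome 1, 130826684 to 130852249, plus strand) was at 5702, 6194, 7686 and 6329.97 CPM in WT and at 6994, 5075, 8973 and 6519.7 CPM in cKO. The highest library was 1.77 times the lowest, and both were cKO. For Pigr the log2 fold change was 0.089 ± 0.18 (SE; 95% interval -0.31 to 0.49, that is 0.805-fold to 1.40-fold; edgeR adjusted p = 0.951). Without cKO library 3 it was -0.064. For this abundant gene a change as large as 2-fold in the mean lies outside the interval.

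Lypd8 (ENSMUSG00000013643, chromosome 11, 58379043 to 58390728, plus strand) encodes a GPI-anchored glycoprotein that binds flagellated bacteria and is best known from the colon. It was at 2228, 2714, 1702 and 2103 CPM in WT and at 1833, 1048, 1889.5 and 2111 CPM in cKO. The groups overlapped, with cKO library 2 below all others and WT library 2 above all others. For Lypd8 the log2 fold change was -0.35 ± 0.22 (SE; 95% interval -0.82 to 0.13; edgeR adjusted p = 0.921). It was negative with every library left out in turn, and -0.16 without cKO library 2.

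Nlrp6 (ENSMUSG00000038745, chromosome 7, 140920902 to 140929192, plus strand) encodes a sensor that can assemble an inflammasome in enterocytes and goblet cells. It was at 541, 511, 505 and 481 CPM in WT and at 428, 435, 541 and 440.0 CPM in cKO. Libraries 1, 2 and 4 of cKO were lower than any WT library, and cKO library 3 lay level with the highest WT library. For Nlrp6 the log2 fold change was -0.14 ± 0.11 (SE; 95% interval -0.39 to 0.11; edgeR adjusted p = 0.921), and -0.23 without cKO library 3. It was the steadiest of the 8 genes, with a within-group SD of 0.12 on the log2 CPM scale, while 10.6% of tested genes had a lower one.

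**Figure D3:**
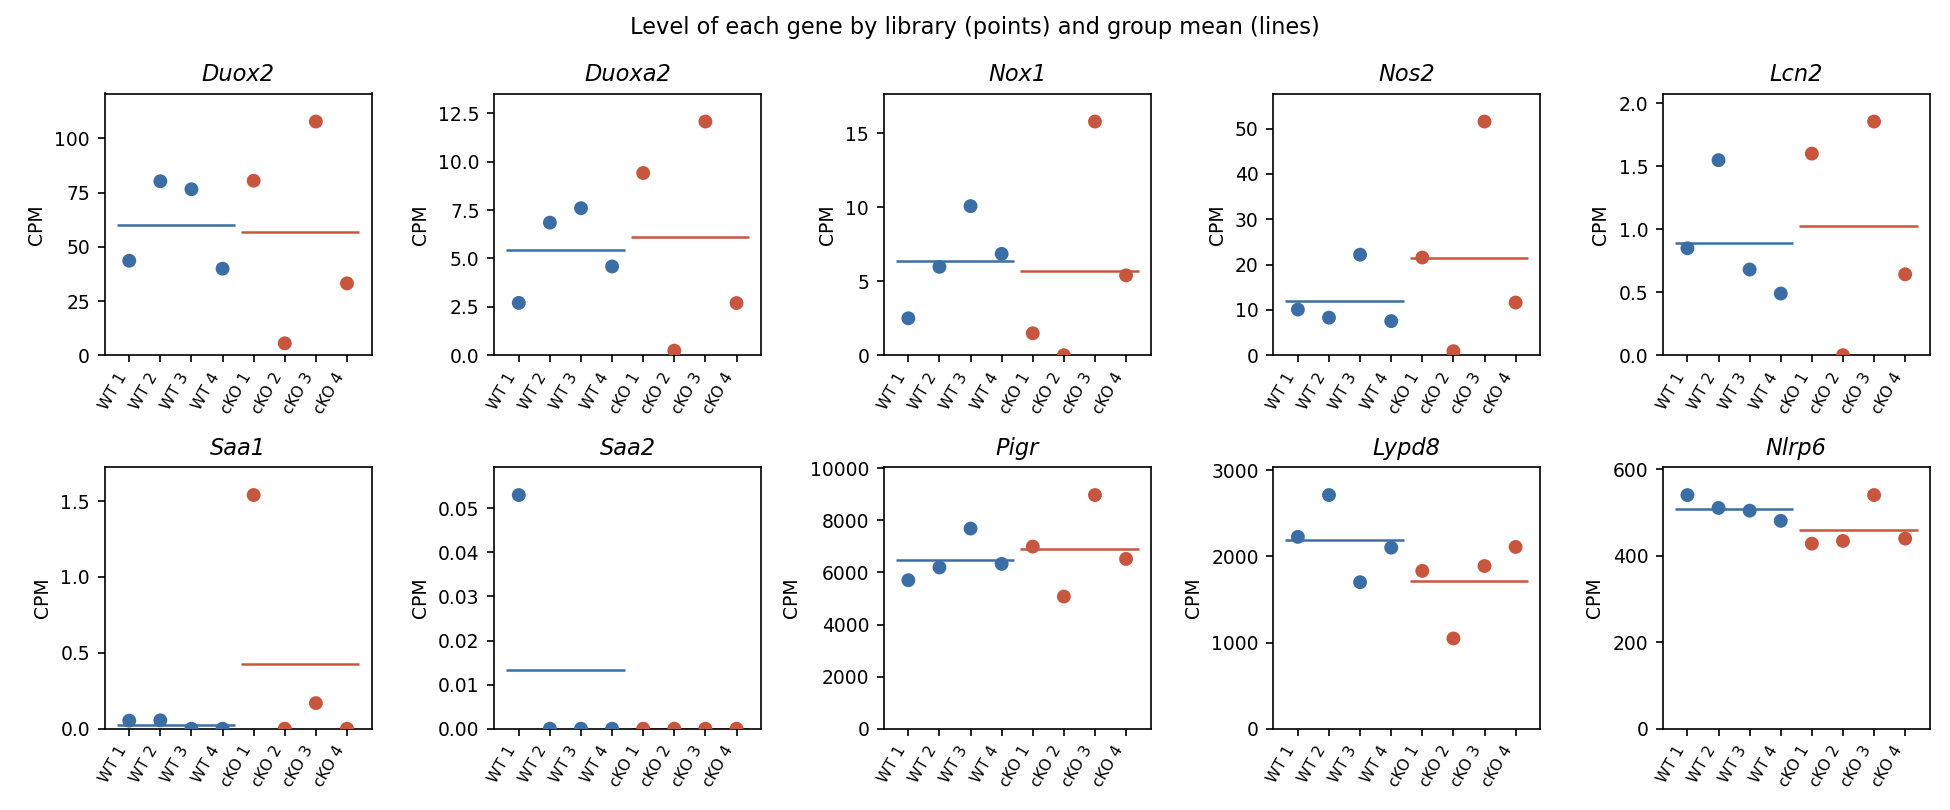
CPM of the 10 genes in WT libraries 1 to 4 (blue) and cKO libraries 1 to 4 (red), each panel with its own axis from 0; lines are group means. Library 2 of cKO is lowest and library 3 of cKO highest for Duox2, Duoxa2, Nox1, Nos2, Lcn2 and Pigr.

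The oxidant genes and Lcn2 varied more between libraries of a group than most genes did. The within-group SD of log2 CPM was 1.41 for Duox2, 1.71 for Duoxa2, 2.24 for Nox1, 1.80 for Nos2 and 1.40 for Lcn2. Between 99.3% and 99.9% of tested genes had a lower SD than these 5. Much of this spread came from cKO library 2. Without it, an alternative added after seeing the data, the SDs were 0.73 for Duox2, 0.93 for Duoxa2, 1.31 for Nox1, 0.91 for Nos2 and 0.68 for Lcn2, and between 92.3% and 99.1% of tested genes had a lower one. Over all libraries Pigr (0.27) and Lypd8 (0.38) were unremarkable by this measure, with 54.8% and 72.6% of tested genes below them.

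Library 2 of cKO had the lowest level of the 8 libraries for 7 of the 8 tested genes, Nlrp6 being the exception, while 10.5% of all tested genes were lowest there. This was looked at after the values were seen. Duox2 in that library was 7.18% of the median of the other 7 libraries, Nos2 7.63% and Duoxa2 3.45%. Lypd8 was 49.8%, Pigr 77.8% and Nlrp6 86.1% of that median. Duox2 had 93 reads there, an exact Poisson 95% interval of 4.43 to 6.73 CPM that covers counting error only, against 33.1 CPM in the next lowest library.

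Only 7 of 14701 tested genes (0.0476%) lay 4-fold or more below all other libraries in cKO library 2, with levels under 3 counts set to 3 counts, and 4 of them were Duox2, Duoxa2, Nox1 and Nos2. The lowest other library exceeded it 6.03-fold for Duox2, 8.49-fold for Nos2 and 11.4-fold for Duoxa2, and at least 8.36-fold for Nox1. Ceacam10 and Hebp2, named after their values were seen, were also among the 7. At 2-fold the count was 38 genes, of which Lcn2 was the 5th of the 10 genes described here. The other 7 libraries each had from 1 to 12 genes 4-fold below all others. Library 2 of cKO lay within the other libraries in depth (16265600 counts) and in mitochondrial reads (5.997%, within 5.28% to 7.71%). Its median gene was at 100.3% of the median of the other libraries. It had the most genes detected (21727, against 21346 to 21581 elsewhere) and the highest TMM factor (1.04, against 0.946 to 1.03). That library also had the lowest summed markers of colonocytes (1689 CPM against 1925 to 3469 CPM elsewhere). The sums for goblet cells (6337 against 6531 to 9101 CPM) and epithelium as a whole (9662 against 9964 to 12924 CPM) were lowest there too. Fcgbp alone gave 3433 CPM of the goblet sum, and Krt8 2772 CPM of the epithelial sum. Of the tested markers, 2 of 7 goblet and 2 of 9 epithelial genes were lowest there, beside 10.5% of all tested genes. The colonocyte sum was highest in cKO libraries 1 and 3, as Duox2 was. Most of that sum was Muc13, at 2791 and 2561 CPM there and 1236 CPM in cKO library 2. Of 9 tested colonocyte genes, 2 were lowest in cKO library 2. In cKO library 3, 1 of the 9 was highest, beside 25.8% of all tested genes. The part of these cell types in the low Duox2, Duoxa2, Nox1 and Nos2 was not tested.

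**Figure D4:**
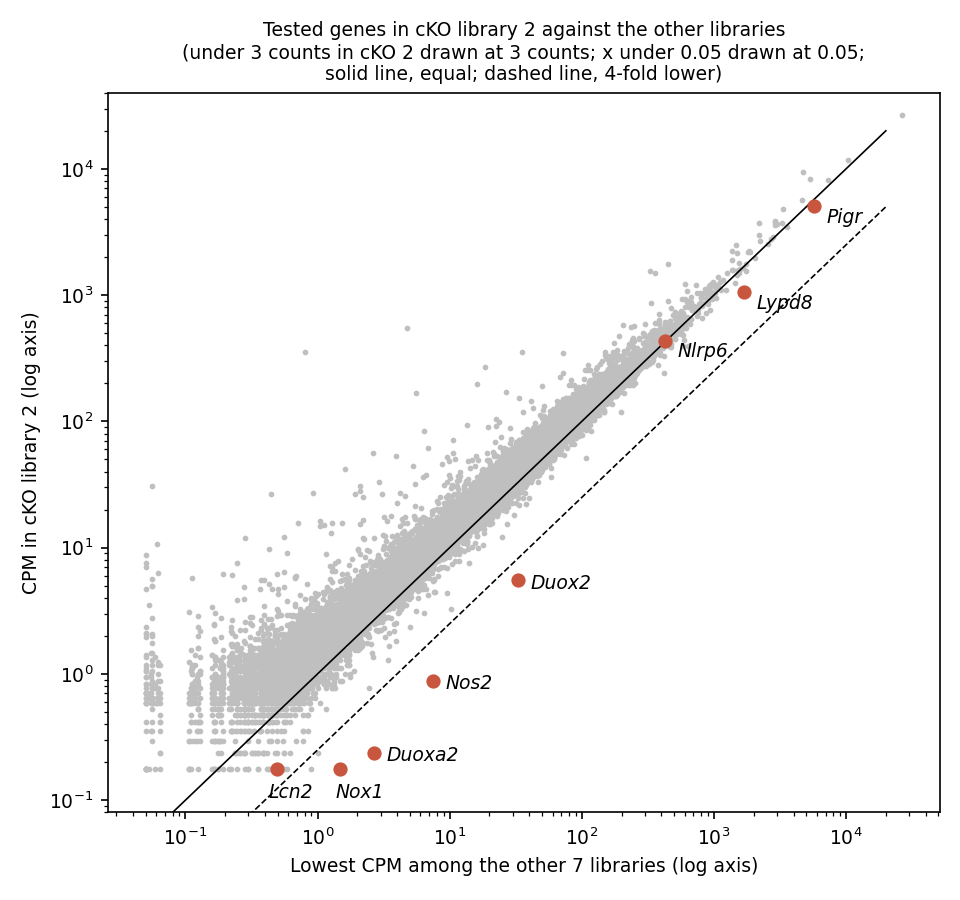
CPM in cKO library 2 (log axis) against the lowest CPM among the other 7 libraries (log axis) for all 14701 tested genes (grey) and the 8 tested genes described here (red). Duox2, Duoxa2, Nox1 and Nos2 lie under the dashed line of a 4-fold deficit, with only 3 other genes.

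Library 3 of cKO was the highest of the 8 for 7 of the 8 tested genes, all but Lypd8, while 25.8% of all tested genes were highest there. For Nlrp6 this was a near tie, at 540.8 CPM against 540.7 CPM in WT library 1. Library 3 of cKO also had the highest sums for markers of epithelium, stroma and lymphocytes. The epithelial sum was 12924 CPM there, of which Krt8 gave 3878 CPM, and 9662 to 11379 CPM elsewhere, with 6 of 9 markers highest there. The stroma sum was 22.1 CPM there, of which Vim gave 18.9 CPM, and 10.9 to 17.2 CPM elsewhere. Summed markers of B and plasma cells reached 135 CPM there against 18.2 to 58.1 CPM elsewhere, and those of T cells and intraepithelial lymphocytes 732 CPM against 174 to 579 CPM. Over the 9 and 12 markers of these lists, 7 and 11 had a mean of 1 CPM or more. Most of the B and plasma cell sum in cKO library 3 was Igha (69.9 CPM) and Igkc (44.4 CPM), while Ms4a1 was lowest there, at 0.843 CPM. Of the tested markers, 4 of 7 in the B and plasma cell list and 11 of 12 in the T cell list were highest there. The sum of 10 macrophage markers was 31.5 CPM there against 9.98 to 17.1 CPM elsewhere, but 22.8 CPM of it was Cd14, and the other 9 markers summed to 8.71 CPM there, 9.30 CPM in cKO library 1 and 2.93 to 5.55 CPM in the rest. The macrophage marker Adgre1 had 20 reads in all 8 libraries. The part of these cells in the high Nos2, Nox1 and Duox2 of that library was not tested. In cKO library 2, where Nos2 was lowest, Cd14 was also lowest, at 4.43 CPM, while the other 9 macrophage markers summed to 5.55 CPM, above every WT library.

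With WT library 3 and cKO library 3 both left out, the log2 fold changes were -0.46 for Duox2, -0.19 for Duoxa2, -1.16 for Nox1, 0.40 for Nos2, -0.37 for Lcn2, 0.029 for Pigr, -0.50 for Lypd8 and -0.23 for Nlrp6, and edgeR called none of them. The values of Duoxa2 and Lcn2 changed sign with that step, and that of Rictor was -0.29.

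Pairs of genes were compared by Pearson r and Spearman rho of log2 CPM over libraries, as a description with no test. All points share the depth of their library, and cKO library 2 lies far from the others, so r is given without it (n = 7). Duox2 and Duoxa2 had an r of 0.94 and a rho of 0.93, and still 0.91 without cKO library 3 as well. Duox2 and Lcn2 had an r of 0.81 and a rho of 0.93, and Duox2 and Nos2 0.71 and 0.57. Duox2 and Nox1 had an r of 0.28, and -0.092 without cKO library 3 as well, so their likeness over all 8 libraries (0.85) rested on those 2 libraries. Nos2 and Pigr, which differ widely in level, had an r of 0.93 and a rho of 0.86. Pigr and Lypd8, nearly equal in level, had an r of -0.66 and a rho of -0.82. Over all 8 libraries their r was 0.25 and their rho -0.21, so the sign of r depended on cKO library 2.

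By Pearson r over the 8 libraries among 11772 named genes of 1 CPM or more, the genes most like Duox2 were Smpdl3a (0.96), a phosphodiesterase of the sphingomyelinase family, Pirt (0.95) and Cox5a (0.95), a subunit of cytochrome c oxidase. Those most like Duoxa2 were Mdh2 (0.95), the mitochondrial malate dehydrogenase, Smpdl3a (0.95) and Cox5a (0.94). For Nox1 they were the class I MHC gene H2-Q4 (0.99), the ribokinase gene Rbks (0.97) and Ceacam10 (0.96), with cKO library 2 included throughout. For Nos2 they were Mmp28 (0.96), Pdcd6ip (0.95) and Ndufb9 (0.95), and for Lcn2 Sptlc1 (0.97), Gpatch3 (0.95) and Pirt (0.94). Pigr was most like Amdhd2 (0.99), the calcium channel gene Orai1 (0.98) and the MHC class I loading factor Tapbp (0.97). Lypd8 was most like Epsti1 (0.96), Coa5 (0.94) and Zfp58 (0.93), and Nlrp6 most like Ccdc3 (0.96), Pctp (0.95) and Mboat2 (0.95). Without cKO library 2 these values of r ranged from 0.72 to 0.98. H2-Q4 was then at 0.95 with Nox1, while Pirt fell to 0.72 with Duox2 and with Lcn2, and Coa5 and Zfp58 to 0.74 and 0.73 with Lypd8.

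The partners of the oxidases came from a list of 19 genes, of which 12 were tested, 8 higher and 4 lower in cKO, 0 called, with a median log2 fold change of 0.071. The NOX1 activator Noxa1 was at 19.7 CPM in cKO library 2 and at 26.7 to 54.7 CPM elsewhere, and Cyba at 22.1 CPM there and at 37.5 to 91.8 CPM elsewhere, both highest in cKO library 3 like Nox1. The organiser Noxo1 varied little, from 1.91 to 2.75 CPM. Cyba is also expressed by phagocytes, and their part in its level was not tested. Duox1, the other dual oxidase, had 81 reads in all. The smallest p-values were those of Nox4, an oxidase that makes hydrogen peroxide, with group means of 0.315 ± 0.275 (WT) and 0.971 ± 0.362 CPM (cKO; SD, n = 4 each), and of Ass1, which makes the arginine precursor argininosuccinate, at 4.31 ± 0.493 and 2.92 ± 0.940 CPM (edgeR adjusted p = 0.921 each).

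Receptors and transducers of IL-22, IL-17 and Toll-like receptor signals were a list of 22 genes, of which 21 were tested, 16 higher and 5 lower, 0 called, with a median of 0.11. Rela, a subunit of NF-kappaB, averaged 43.3 ± 1.303 (WT) and 51.5 ± 8.76 CPM (cKO; edgeR adjusted p = 0.921). Tlr5, the flagellin receptor, was at 0.635 ± 0.0789 and 1.01 ± 0.475 CPM. The groups did not overlap for Rela, 1 of the 21 genes, beside 3.21% of all tested genes. Of the 21 genes, 11 were lowest in cKO library 2, beside 10.5% of all tested genes. Socs3, a feedback inhibitor induced by STAT3, was at 129 CPM in cKO library 1, the library with the Saa1 reads, and at 9.60 to 33.9 CPM elsewhere. The cytokine Il22 itself had 2 reads in all and Il17a none.

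Of 20 inducible antimicrobial and acute phase genes 11 were tested, 7 higher and 4 lower, 0 called, with a median of 0.027. In cKO library 2, 6 of the 11 were lowest, beside 10.5% of all tested genes. The lectins Reg3b and Reg3g, which bind bacteria, were at 14444 and 6259 CPM in cKO library 1, and at 993 and 394 CPM in cKO library 2. Unlike Duox2, Reg3b was also low in WT library 3, at 886 CPM. Pla2g5, a secreted phospholipase, was at 1.2997 CPM in cKO library 2 and at 3.402 to 19.8 CPM elsewhere. The smallest p-values were those of complement C3, with means of 1.83 ± 0.940 (WT) and 3.97 ± 2.66 CPM (cKO), and of the chemokine Ccl28, which draws IgA plasma cells, at 113 ± 5.70 and 96.8 ± 12.4 CPM (edgeR adjusted p = 0.921 each).

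**Figure D5:**
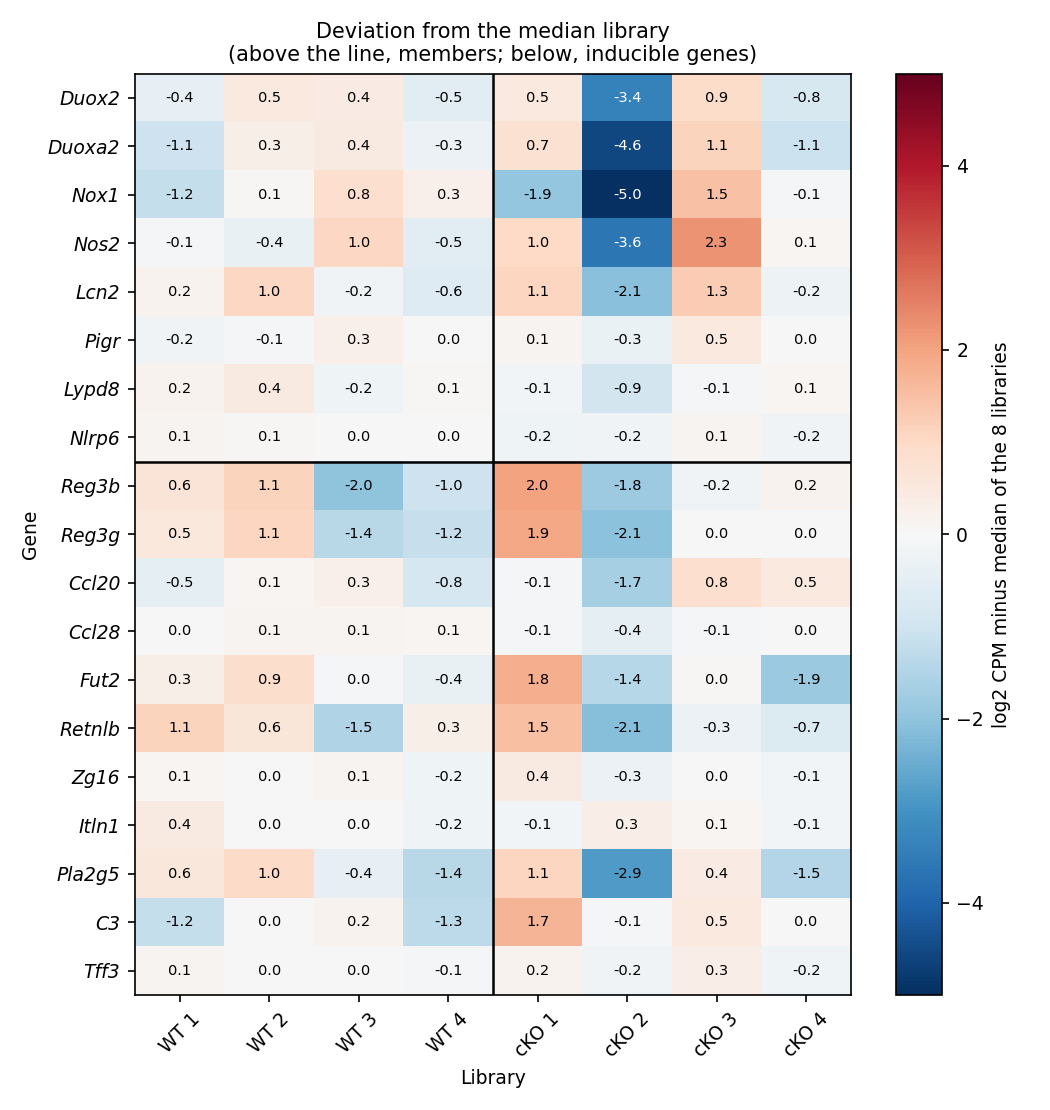
Log2 CPM minus the median of the 8 libraries for the 8 tested genes described here (above the line) and the 11 tested inducible genes (below), with levels under 3 counts set to 3 counts; columns are libraries and the vertical line parts WT from cKO. Library 2 of cKO is low at -3.39 for Duox2 and -2.85 for Pla2g5, and library 1 of cKO is high at 2.03 for Reg3b.

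The IgA list held 15 genes besides Pigr, of which 14 were tested, 10 higher and 4 lower, 0 called, with a median of 0.065. Igha, the IgA heavy chain made by plasma cells, was at 69.9 CPM in cKO library 3, where Pigr was highest, and at 6.36 to 20.0 CPM elsewhere. The smallest p-values were those of Yes1 and of Ccl28. Yes1, a Src family kinase linked to transcytosis of the receptor, had means of 117 ± 10.9 (WT) and 86.0 ± 23.6 CPM (cKO; edgeR adjusted p = 0.921). Its groups did not overlap, as for 1 of the 14 tested genes, beside 3.21% of all tested genes.

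Around Nlrp6, 15 of 20 inflammasome genes were tested, 4 higher and 11 lower, 0 called, with a median of -0.22. The adaptor Pycard, which NLRP6 recruits, was at 236 ± 37.9 and 238 ± 19.3 CPM, Casp1 at 160 ± 19.7 and 137 ± 42.1 CPM, and the cytokine gene Il18 at 53.0 ± 14.0 and 49.3 ± 33.996 CPM. The DNA sensor Aim2 had the smallest p, with a log2 fold change of -2.01 ± 0.72, and was at 23.3 CPM in WT library 3 and at 2.65 to 5.20 CPM in the other WT libraries. Naip1, a sensor of bacterial secretion systems, was at 147 ± 10.6 and 116 ± 17.9 CPM (edgeR adjusted p = 0.921 for Aim2 and for Naip1). The groups did not overlap for Naip1, 1 of the 15 tested genes, beside 3.21% of all tested genes.

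Of 13 relatives of Lypd8 with Ly6 or uPAR domains 8 were tested, 4 higher and 4 lower, 0 called. The urokinase receptor gene Plaur had means of 0.647 ± 0.176 (WT) and 1.46 ± 0.712 CPM (cKO), and Ly6g6f was at 1.03 ± 0.456 and 0.706 ± 0.362 CPM (edgeR adjusted p = 0.921 each). The groups did not overlap for Plaur, 1 of the 8 tested genes, beside 3.21% of all tested genes. Ly6e, the most abundant by CPM, had means of 178 (WT) and 145 CPM (cKO).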

How the data were processed

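The authors deposited raw counts for each of 54139 genes, and FPKM, which divide by gene length and library size, for the same genes. Per the series' design text, Illumina NovaSeq reads were processed with Hisat2 and then Stringtie. For versions, build, counting program and strand setting the sources used here give nothing. Of the 10 genes described, 9 have identical coordinates in GENCODE M21 (GRCm38), where Duox2 ends further on. Unnamed loci took 0.191% to 0.270% of counts.

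Counts were tested with edgeR 4.0.16 (R 4.3.3, quasi-likelihood, robust) with TMM factors, its default filter by group, a model of genotype alone and a Benjamini-Hochberg threshold of 0.05 over 14701 genes, after a test on simulated data. An SE is the log2 fold change over the square root of F. DESeq2 1.42.0, limma 3.58.1 (voom with sample quality weights, or log2(FPKM + 0.1) and log2(FPKM + 1)), other filters and factors, a replicate block and leaving out libraries were alternatives. The log2 CPM used a prior count of 2. No 2 libraries of a group agreed within sampling noise (lowest chi-square per degree of freedom 10.7).

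The genes and lists were chosen with earlier results of these data known. Named were the 10 genes, Rictor, the 2 smallest p-values of each pathway list and the 3 genes most like each tested gene. Other genes were named after their values were seen, and some are not reported here. Promoters are from RefSeq (GRCm38.p6), and transcripts were aligned with Biopython 1.88.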

Additional observations from a re-analysis of the deposited data

Results flagged for a closer look

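Each of 11 genes (the 10 and Rictor) gives 2 groups of 4 libraries. In 3 of these 22 groups a single value was set apart from its group by more than Dixon's critical gap. Chance alone does this in about 1 of 20 groups of normally distributed values, which counts near 0 are not. Saa2 in cKO, at 0 in every library, has no range and could not be measured. Saa1 had 1.54 CPM in cKO library 1 and 0 to 0.169 CPM in cKO libraries 2 to 4, so the gap was 0.891 times that range. Saa2 was high in WT library 1 through a single read, at 0.0530 CPM against 0 in the other WT libraries. The gap was 1 times the range, which any single read against 0 elsewhere must give. For Nlrp6 it was cKO library 3, with 541 CPM where libraries 1, 2 and 4 had 428 to 440.0 CPM, and the gap was 0.896. On the CPM scale the low values of cKO library 2 for Duox2, Duoxa2, Nox1 and Nos2 did not meet this measure.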

How the results depend on the processing

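All alternatives were named with earlier results known. None called any of the 8 genes, over 17 to 19 alternatives each, and the lowest adjusted p was 0.457 (Nlrp6). Lypd8 and Nlrp6 kept their negative sign in all 19. Over all genes edgeR called 2, and 10 with no filter, 4 without both libraries 3, 0 to 3 with 1 library left out and 0 with the replicate number as a block. DESeq2 called 40, and limma on FPKM 0 at each setting (log2(FPKM + 0.1), the same with a mean FPKM of 0.5 or more, and log2(FPKM + 1)). The deviations of same-numbered libraries from their group means correlated at -0.11, 0.11, 0.15 and 0.14, and WT libraries 3 and 4, but not 1 and 2, correlated best with their own number. As not every pair was above 0.1, the numbers were not taken to pair the libraries. With the replicate block Duox2 was at -0.44, Nox1 at -0.91 and Nos2 at 0.28, and no gene was called.

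The sign of Duoxa2 turned without both libraries 3 (-0.19), with the replicate block (-0.29), with sample quality weights (-1.57) and on log2(FPKM + 0.1) (-0.62, also with the FPKM minimum) and log2(FPKM + 1) (-0.20). That of Lcn2 turned without both libraries 3 (-0.37), with quality weights (-1.86) and on log2(FPKM + 0.1) (-0.15). With quality weights Nos2 was at -0.73, Pigr at -0.0018, Duox2 at -1.40 and Nox1 at -2.58. The cause was not tested. With 1 library left out, Duox2 ran from -0.60 to 0.31, Duoxa2 from -0.40 to 0.58, Nox1 from -1.48 to 0.27, Nos2 from -0.079 to 1.31, Lcn2 from -0.26 to 0.62 and Pigr from -0.064 to 0.22. Depth limits Lcn2, Saa1 and Saa2, which had at most 33 reads in a library.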
